A study of Mus musculus with 4 samples.

Results

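The genes described here encode the proteins of the cytosolic ribosome. They were chosen by symbol as the protein-coding rows named Rpl or Rps with the usual number, letter or P-protein ending, a rule that uses no measured value, and 83 of the 54532 genes in the table met it. Of these, 31 encode proteins of the small subunit (Rps) and 52 of the large subunit (Rpl). RNA-seq was run on 4 samples of naïve CD8+ T cells from the spleen of C57BL/6 mice. All 4 were stimulated for 48 h with anti-CD3 and anti-CD28 antibodies, which act on the antigen receptor and on a costimulatory receptor. The 2 control samples had no further addition, and the 2 IFNα samples also received the type I interferon IFNα at 2000 U/ml. The question for these genes was whether IFNα shifts the mRNA of the ribosome during T cell activation. The labels do not say whether the 2 samples of a group came from separate mice or cultures, so each p-value reflects the spread of these libraries alone, part or all of which may be technical.

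A ribosome holds most of its proteins in a single copy around a core of ribosomal RNA, and activated T cells make many new ribosomes before they divide. Most ribosomal protein mRNAs begin with an unbroken run of C and T (U in the RNA), the 5′ terminal oligopyrimidine tract or TOP. This tract lets the kinase complex mTORC1 and the RNA-binding protein LARP1 set how much of the mRNA is translated, so that the protein can change with little change of the mRNA. RNA-seq of total RNA reads the mRNA level only. In these bulk samples, fewer cells of a type and less RNA per cell cannot be told apart.

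Start sites of a few members are shown because the TOP run is the sequence feature that most members have in common. The RefSeq promoter table for GRCm38.p6 held 63 of the 83 members by symbol. A run of 8 or more letters, each C or T, starting within 20 bases before to 30 bases after the annotated start, was found in 42 of them (66.7%), against 23.6% of the 27025 genes of the table and 26.1% of the 69 genes for mitochondrial ribosomal proteins that it held. The stretches below have 30 bases, read 5′ to 3′, and the capitals mark the run. Rps6, the substrate of S6 kinase, and the small subunit protein gene Rps12 have runs of 10 and 11 letters. Rpl22l1, Rpl11 and Rpl7a have runs of 10, 17 and 21 letters, and Rpl38 has 10.
Rps6 (chr4:86857344-86857373, minus strand): tcgggCCTCTTTTTCgtgacgcctcccagg
Rps12 (chr10:23787177-23787206, minus strand): gccggCCTTTTCCCCTgccgccgccgactt
Rpl22l1 (chr3:28805504-28805533, plus strand): gcccgTTCTCTTCCCacggctgcagctcaa
Rpl11 (chr4:136053356-136053385, minus strand): ggaagTCTCCCTCTCTCTTCCTgttctcca
Rpl7a (chr2:26910788-26910817, plus strand): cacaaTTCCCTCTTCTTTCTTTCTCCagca
Rpl38 (chr11:114668573-114668602, plus strand): cctcgTTCTTTCCCCgttctcttcggttct

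In 3 members shown for contrast, no run of that length starts in the window at the RefSeq start. Their longest runs have 7 letters in Rplp0, a stalk protein, 3 in Rpl7l1, a paralog of Rpl7, and 3 in Rpl24.
Rplp0 (chr5:115559462-115559491, plus strand): ttcgaggaccgcctggttctcctataaaag
Rpl7l1 (chr17:46782632-46782661, minus strand): gcaagcgcagtagctgaagcaccggaaaga
Rpl24 (chr16:55966270-55966299, plus strand): tgctaggaaacagactgggcgctcggaagt
A match, or the lack of one, is a description of these letters at 1 annotated start per gene. It is not evidence of use, or that the mRNA has or lacks a TOP. On the opposite strand a run of the same length was found in 11.1% of the members and 27.5% of all genes of the table. In the counts, the median log2 fold change of IFNα against control was -0.34 in the 42 members with a run and -0.32 in the 19 tested members without it, and the median log2 ratio of control 2 to control 1 was -0.66 and -0.59.

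Ribosomal protein mRNAs took 11.2% of all counts in control 1, 7.57% in control 2, 6.70% in IFNα 1 and 7.62% in IFNα 2. Control 1 alone stood high, and control 2 lay between the IFNα samples. The control mean was 9.39% ± 2.57 (SD, n = 2) and the IFNα mean 7.16% ± 0.646 (SD, n = 2). The difference of -2.23 percentage points was smaller than the control SD (exact two-sided permutation test over samples, p = 0.667, where 2 against 2 cannot go below 0.333). The small subunit genes held 4.78%, 3.17%, 2.81% and 3.17% of counts in the same order, and the large subunit genes 6.43%, 4.40%, 3.90% and 4.45%. Both subunits thus had the same order of samples.

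**Figure D1:**
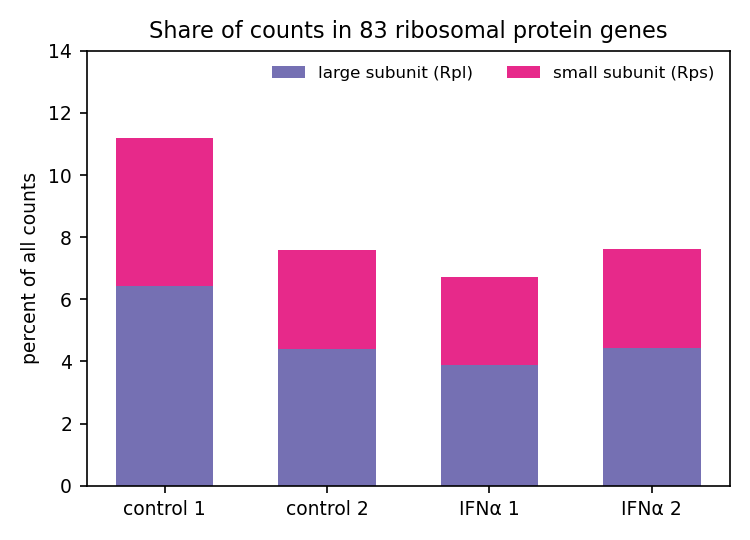
Share of all counts (percent, bars from 0) in the 83 ribosomal protein genes in each of the 4 samples, split into large and small subunit genes. Control 1 reached 11.2%, and the other samples lay between 6.70% and 7.62%.

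Of the 83 members, 81 had enough counts to be tested. Control 1 had the highest level of the 4 samples in 80 of the 81, against 37.6% of the 14417 genes tested. Its level, as CPM (counts scaled to a library of 1000000), was 1.55 times the mean of the other samples at the median member, with a range of 1.06 to 2.39. Control 2 lay within the range of the IFNα samples in 67 of the 81 members, against 22.95% of all tested genes. The log2 ratio of control 2 to control 1 had a median of -0.64 over the members, with quartiles of -0.72 and -0.54, and of 0.01 over all tested genes. Between the IFNα samples the median log2 ratio of replicate 2 to replicate 1 was 0.22 for the members and 0.00 for all genes. Control 1 had 17375960 counts, inside the range of 16096121 to 17676062 over the 4 libraries, and its scaling factor was 0.997, between 0.976 and 1.04 for the others.

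**Figure D2:**
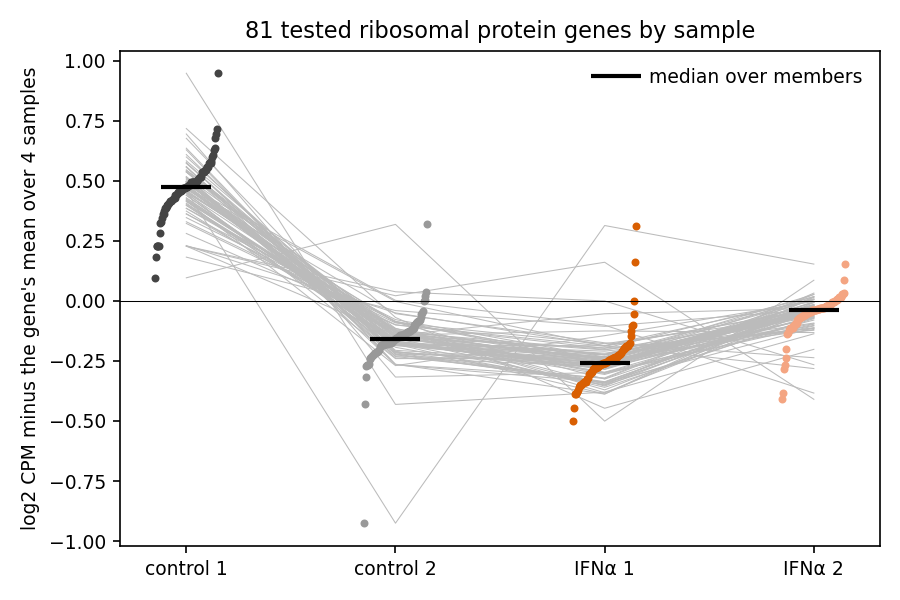
Level of each of the 81 tested ribosomal protein genes in each sample, as log2 CPM minus the gene's mean over the 4 samples. Points are genes, thin lines join the points of a gene, and black bars are medians. Control 1 lies above the other samples for nearly all genes, and control 2 overlaps the IFNα samples.

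No ribosomal protein gene passed the test of IFNα against control in either direction. By the quasi-likelihood test of edgeR, with p adjusted after Benjamini and Hochberg over 14417 genes, 0 of 81 members were called at an adjusted p under 0.05, and DESeq2 and limma-voom also called 0. Of all tested genes, 1.65% were called in either direction and 0.222% were called lower. The smallest adjusted p of a member was 0.420. At an unadjusted p under 0.05, 1 member was lower (Rpl22l1) and 0 were higher. The fitted log2 fold change was below 0 in 80 of 81 members and in 51.8% of all tested genes. Its median was -0.34 over the members, with quartiles of -0.40 and -0.29 and a range of -0.70 to 0.31, beside -0.01 over all genes. It was -0.34 for the 31 small subunit genes and -0.33 for the 50 tested large subunit genes. Both IFNα samples lay below both controls in 7 members (Rpl21, Rpl22l1, Rpl24, Rpl30, Rps4x, Rps12 and Rps27a), which is 8.64% beside 23.4% of all tested genes, and above both in 0 beside 23.1%.

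The stalk proteins stand out from the large subunit as a flexible arm that calls in the GTPases of translation. Rplp0 (chromosome 5, 115559467 to 115563727, coordinates as in the count table), the base of the stalk, was at 4177 and 3013 CPM in control 1 and 2 and at 2670 and 3110 in IFNα 1 and 2. Control 2 fell between the IFNα samples, and the log2 fold change of -0.32 (SE 0.23) did not pass (edgeR adjusted p = 0.630). Rplp1, which forms the arm together with Rplp2, was at 2724 and 1634 CPM in the controls and at 1417 and 1734 with IFNα. Rplp2 was at 1196 and 701 CPM in the controls and at 658 and 832 with IFNα. For each of these genes only control 1 stood apart, and the log2 fold changes of -0.47 (SE 0.28) for Rplp1 and -0.35 (SE 0.29) for Rplp2 did not pass (adjusted p = 0.584 and 0.656). Per length, taking counts over the table's gene length (TPM, the length-corrected counterpart of CPM), the highest members were Rplp1 at 11560, Rplp0 at 6042 and Rpl36 at 5374, as means of the 4 samples. The order depended on the length used. As CPM per kilobase of 1 GENCODE M21 transcript per gene, Rplp1 was still highest at 3762. By that measure Rplp0 at 2388 and Rpl36 at 1746 lay below some other members.

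Rpl3 (chromosome 15, 80077791 to 80091868), a protein of the peptidyl transferase centre, was at 2945 and 1966 CPM in the controls and at 1832 and 1981 with IFNα. Rpl10, which completes that centre late in assembly, was at 1771 and 1306 CPM in the controls and at 1172 and 1332 with IFNα. Control 2 lay within the IFNα range for both genes. The log2 fold changes were -0.36 (SE 0.24, adjusted p = 0.604) for Rpl3 and -0.30 (SE 0.21, adjusted p = 0.620) for Rpl10. Rpl5 and Rpl11 join the smallest ribosomal RNA of the large subunit in a particle that, when free, binds the p53 ligase MDM2. Rpl5 was at 2262 and 1518 CPM in the controls and at 1444 and 1534 with IFNα, and Rpl11 at 1314 and 825 and at 766 and 914. Both had control 2 inside the IFNα range, with log2 fold changes of -0.34 (SE 0.23) and -0.35 (SE 0.26) and adjusted p of 0.612 and 0.630.

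The large subunit genes with the smallest p after Rpl22l1 were Rpl30, Rpl21 and Rpl29. Rpl30, whose yeast homolog binds its own transcript, was at 1066 and 745 CPM in the controls and at 685 and 656 with IFNα (log2 fold change -0.43, SE 0.21, adjusted p = 0.519). Rpl21 was at 244.5 and 214 CPM in the controls and at 209 and 174 with IFNα (-0.26, SE 0.15, adjusted p = 0.575). In Rpl30 and Rpl21 the groups did not overlap. Control 2 was nearer to both IFNα samples than to control 1 in Rpl30, and in Rpl21 it was nearer to IFNα 1 but farther from IFNα 2. Rpl29 was at 107 and 70.0 CPM in the controls and at 59.8 and 74.4 with IFNα, with overlapping groups (-0.40, SE 0.23, adjusted p = 0.578). Rpl13a, which in human myeloid cells also acts outside the ribosome to silence transcripts after interferon-γ, was at 88.7 and 61.0 CPM in the controls and at 61.7 and 61.4 with IFNα. Its IFNα samples lay beside control 2, and its log2 fold change was -0.28 (SE 0.20, adjusted p = 0.619).

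In the small subunit, Rps6 (chromosome 4, 86854660 to 86857412), whose phosphorylation by S6 kinase is the usual readout of mTORC1 activity, was at 2270 and 1695 CPM in the controls and at 1593 and 1772 with IFNα. Control 2 lay between the IFNα samples, and the log2 fold change of -0.24 (SE 0.21) did not pass (adjusted p = 0.671). Rps12 (chromosome 10, 23785183 to 23787275), which in Drosophila takes part in cell competition, was at 1415 and 820 CPM in the controls and at 631 and 748 with IFNα. Both IFNα values were below both controls, and its log2 fold change of -0.70 (SE 0.28) was the lowest of all members, yet it did not pass (adjusted p = 0.449). With the samples paired crosswise as a block, a pairing chosen after the data were seen, Rps12 was the 1 member called (log2 fold change -0.65, edgeR adjusted p = 0.0211), beside 2.36% of all tested genes called lower in that fit.

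Rps29, a zinc-binding protein near the decoding site, showed the widest gap between the controls, at 1048 and 403 CPM, while the IFNα samples were at 418 and 494. Control 2 was thus the lowest of the 4 samples, and the log2 ratio of control 2 to control 1 was -1.38. Its log2 fold change of -0.67 (SE 0.43) did not pass (adjusted p = 0.598). Rps21 was at 719 and 385 CPM in the controls and at 355 and 416 with IFNα (-0.52, SE 0.30, adjusted p = 0.580), and Rps9 at 2208 and 1388 and at 1237 and 1416 (-0.44, SE 0.26, adjusted p = 0.580). Rpl7a showed a like gap in the large subunit, at 605 and 300 CPM in the controls and at 304 and 354 with IFNα (-0.46, SE 0.33, adjusted p = 0.623). In all of these genes control 2 was at or near the IFNα level.

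A few ribosomal proteins are made joined to ubiquitin or a ubiquitin-like protein and are cut free afterwards. Rps27a, the ubiquitin fusion of the small subunit, was at 1107 and 794 CPM in the controls and at 739 and 607 with IFNα. The groups did not overlap, and the log2 fold change of -0.50 (SE 0.22) did not pass (adjusted p = 0.481). Fau, which is made with a ubiquitin-like part, and Rps3a1 fall outside the symbol rule. Fau was at 1125 and 656 CPM in the controls and at 594 and 739 with IFNα, and Rps3a1 at 2727 and 1871 and at 1729 and 1823. The log2 fold changes of these genes were -0.42 (SE 0.29, adjusted p = 0.612) and -0.37 (SE 0.23, adjusted p = 0.589), so neither passed, and control 1 was again their highest sample.

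**Figure D3:**
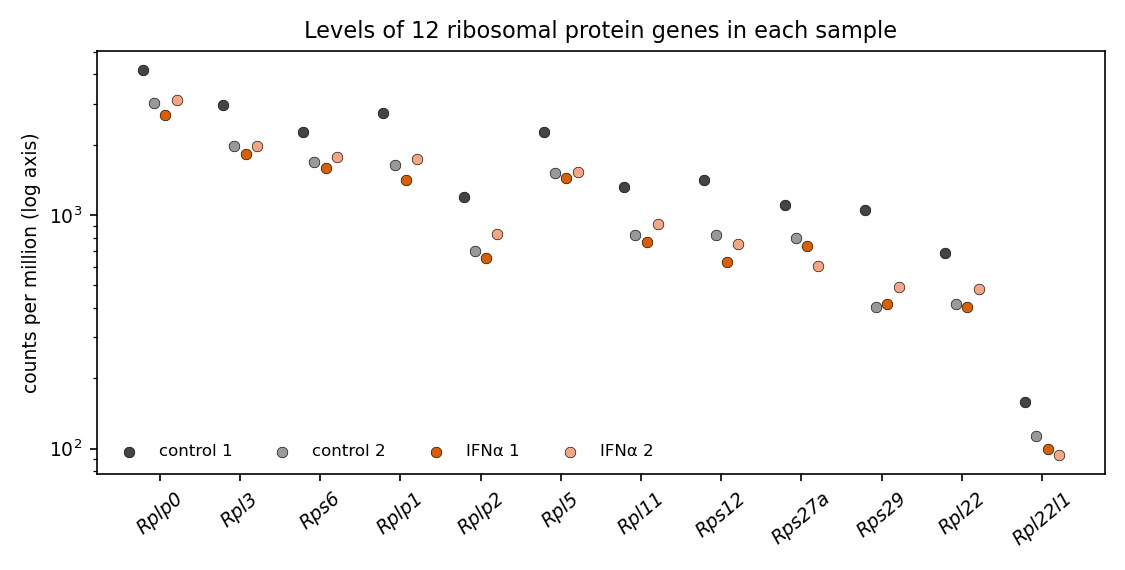
CPM (log axis) of 12 ribosomal protein genes in control 1, control 2, IFNα 1 and IFNα 2, each point 1 sample. For Rps29 the controls were at 1048 and 403 CPM and the IFNα samples at 418 and 494, and in every gene plotted control 1 is the highest point.

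Paralogs of ribosomal proteins can replace their namesakes in some tissues or states. Rpl22l1 (chromosome 3, 28805436 to 28807424) is the paralog of Rpl22, which in mice is needed for the development of αβ T cells. It was at 158 and 114 CPM in the controls and at 100 and 93.8 with IFNα, with no overlap between the groups, and had the smallest p of all members (log2 fold change -0.49, SE 0.18, unadjusted p = 0.0392, adjusted p = 0.420). Rpl22 itself was at 686 and 415 CPM in the controls and at 406 and 484 with IFNα (-0.31, SE 0.26, adjusted p = 0.665), with overlapping groups. Rps27l, a target of p53, was at 120 and 75.03 CPM in the controls and at 73.4 and 78.4 with IFNα, and its namesake Rps27 at 820 and 510 and at 556 and 614. For this pair too only control 1 stood apart, and neither gene passed (log2 fold changes -0.36 and -0.19, adjusted p = 0.598 and 0.774).

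Rpl7l1 was at 163 and 140 CPM in the controls and at 134 and 140 with IFNα, a smaller gap between the controls (log2 ratio -0.22) than in Rpl7, at 2289 and 1571 and at 1503 and 1663 (-0.54). Neither passed, at log2 fold changes of -0.15 (SE 0.13) and -0.29 (SE 0.23). Paralogs known from the testis and muscle were at or near 0: Rpl10l had 0 counts in all 4 samples, and Rpl3l had 0, 1, 2 and 1, so neither was tested. Rpl39l, also known from the testis, was at 1.44 and 1.25 CPM in the controls and at 1.38 and 0.928 with IFNα, against 694 and 392 and 377 and 480 for Rpl39. Rpl36al was at 2.08 and 0.796 CPM in the controls and at 1.88 and 1.68 with IFNα, against 778 and 476 and 447 and 500 for Rpl36a. Rpl36al was the 1 member with a fitted log2 fold change above 0, at 0.31 (SE 0.51, adjusted p = 0.817), and its groups overlapped, at 14 to 36 counts per sample.

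The comparison with IFNα depended on which control library was used. Without control 1, the median log2 fold change of the members was 0.02, and 1 of 81 was called lower, Rpl22l1, at -0.22 (edgeR adjusted p = 0.0258). In that fit 5.82% of all tested genes were called lower. Without control 2, the median was -0.63 and 76 of 81 members were called lower, beside 22.0% of all tested genes. The 5 that were not were Rpl24, Rpl36al, Rpl38, Rpl39l and Rps10. In these fits the lone control is assumed to vary as the IFNα samples do, so the gap between the controls does not enter the error. Computed directly, the mean of the IFNα samples over control 2 had a median log2 ratio of 0.01 over the members, with quartiles of -0.04 and 0.04, and over control 1 a median of -0.63.

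**Figure D4:**
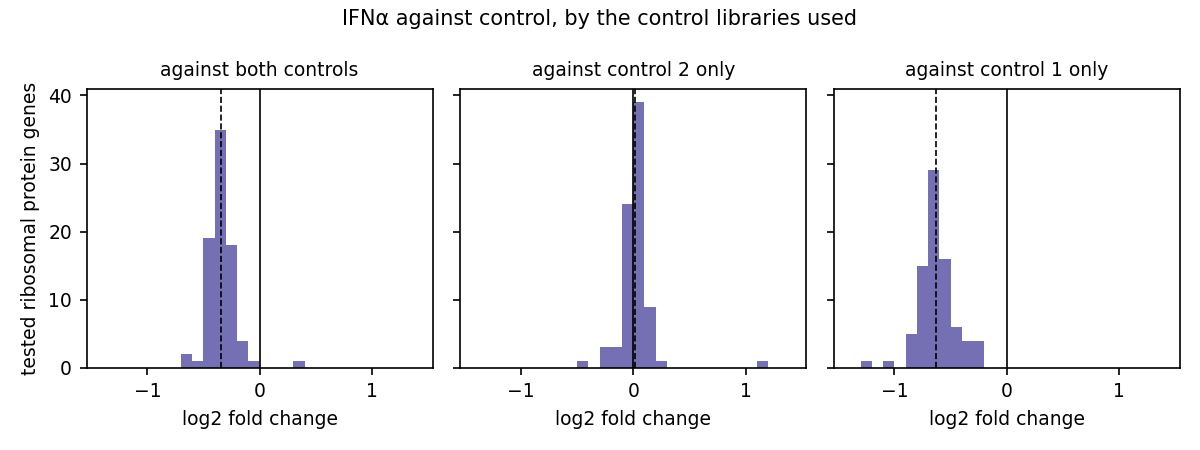
Log2 fold changes of IFNα against control for the 81 tested ribosomal protein genes (histograms, number of genes per bin), with both controls, with control 2 alone and with control 1 alone. Solid lines mark 0 and dashed lines the medians of -0.34, 0.02 and -0.63.

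Ribosomal protein mRNAs are short. With 1 GENCODE M21 transcript per gene, their median length was 775 bases, against 2872 over all tested genes. In some members that transcript was long for its coding sequence, at 5179 bases for 390 in Rps15a and 3706 for 357 in Rps20. Whether the transcripts used are those made in these cells was not tested, which limits every comparison by length. Short mRNAs in general were lower in control 2 than in control 1, and the members more so. For mRNAs no longer than 400 bases that ratio, on the log2 scale, had a median of -0.90 in 6 members and -0.51 in 27 other genes. From 601 to 800 bases it was -0.63 in 18 members and -0.48 in 244 others, and from 1001 to 1200 bases -0.59 in 9 members and -0.38 in 419 others. The members' median was below that of the others in 7 of 7 bands up to 1600 bases, which held 72 members. The band of 1401 to 1600 bases held only 1 member, and that of 1201 to 1400 bases held 6. These bands compare 2 single libraries, so the difference is a description of those libraries. Length did not order the members closely: Rps29 had the widest gap at 390 bases (-1.38), but the shorter Rps27 at 345 bases (-0.69) and Rpl36 at 383 bases (-0.70) lay near the members' median, and Rpl36al at 526 bases (-1.32) and Rpl7a at 914 bases (-1.01) had wider gaps than Rps21 at 394 bases (-0.90).

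**Figure D5:**
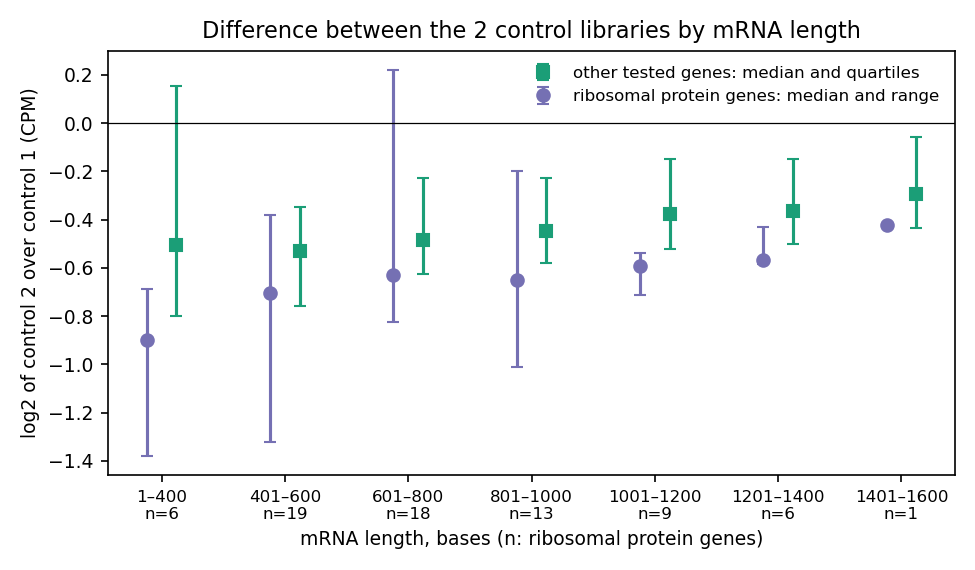
Log2 ratio of control 2 to control 1 (CPM) by mRNA length in bases, for ribosomal protein genes (circles, median with the full range) and other tested genes (squares, median with quartiles). The medians lie below 0 in all bands for both, and the circles lie below the squares in 7 of 7 bands. The band of 1401 to 1600 bases holds 1 ribosomal protein gene.

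Across the 78 members with a mean CPM of at least 5, mRNA length and this ratio had a Pearson r of 0.43 and a Spearman rho of 0.47. Across 11567 genes the values were 0.53 and 0.61. These are correlations across genes of the same 2 libraries, which are not independent replicates. Against control 2, the IFNα samples showed little of this: the median log2 ratio in the shortest band was 0.08 for the members and -0.04 for the others, and in the bands between 401 and 1600 bases it lay between -0.04 and 0.03 for both. With an offset for mRNA length in the fit, added after the data were seen, the median log2 ratio between the controls was -0.33 over the members and the median log2 fold change with IFNα -0.16, and 0 of 81 were called in either direction. With an offset for the file's gene length the latter was -0.20, also with 0 called. Whether length, the handling of a library or the cells of control 1 accounts for the gap was not tested, and with 1 library on that side they cannot be told apart.

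Relative to each other, most members kept similar proportions in all samples. As a share of the counts in the 83 genes, the log2 ratio of the IFNα mean to the control mean had quartiles of -0.05 and 0.05 over the 81 tested members, and that of control 2 to control 1 -0.10 and 0.08. Rpsa, which is also known as a laminin receptor, held 4.03%, 3.85%, 3.73% and 3.73% of these counts in control 1, control 2, IFNα 1 and IFNα 2, and Rplp0 held 3.72%, 4.13%, 3.95% and 3.98%. The share of Rps12 was 1.26% and 1.12% in the controls and 0.934% and 0.959% with IFNα, so both IFNα shares were below both controls. That held for 8 of the 81 members, while in 13 both IFNα shares were above both controls. Shares within this set have no like count over all genes, so neither count is a result about single members. The share of Rps29 was 0.932% in control 1 and 0.552%, 0.618% and 0.633% in the other samples. Its share had a log2 ratio of control 2 to control 1 of -0.76, and that ratio was -0.39 in Rpl7a and 0.43 in Rpl21.  These shares were not tested, since they sum to a fixed total.

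Several members with few counts shared exons with another gene model. In 7 members, exons of another gene cover at least 50% of the bases of the transcript used here. Among them Rpl24 (chromosome 16, 55966275 to 55971435) was at 5.02 and 5.86 CPM in the controls and at 3.32 and 4.99 with IFNα, Rps10 at 17.1 and 13.3 and at 14.1 and 14.3, and Rpl13a and Rpl36al at the levels above. All 4 lie under a gene model with 0 or 1 counts over the 4 samples: Gm28037 covers 71.5% of the Rpl24 transcript, RPS10-NUDT3 with Gm15420 63.6% of Rps10, Gm49383 63.1% of Rpl36al and Gm45713 with small RNA genes 59.3% of Rpl13a. The methods do not say how reads over both genes were assigned, so the levels listed for these 4 members are uncertain. Rpl24 was also the 1 member higher in control 2 than in control 1 (log2 ratio 0.22), at 87 and 103 counts, and its log2 fold change of -0.39 (SE 0.28) did not pass (adjusted p = 0.624).

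Processed pseudogenes, which are copies of spliced mRNAs, can take reads from their parent genes. The table had 290 non-coding rows named after ribosomal protein genes with a pseudogene ending, 128 of them with 0 counts in all samples. The largest excess was in Rps10, with 1002 counts over the 4 samples against 20865 in its 4 pseudogene rows. Most of these were in Rps10-ps2, at 355 and 260 CPM in the controls and at 241 and 286 with IFNα. The order of samples in that row was that of the members, with control 1 highest and control 2 between the IFNα samples. Rpl21 had 14326 counts against 13614 in 15 pseudogene rows, so its level is uncertain too. Of the 83 pseudogene rows tested, 0 were called by edgeR (1 lower at an unadjusted p under 0.05), with a median log2 fold change of -0.17. Adding all pseudogene rows gave shares of 11.5%, 7.81%, 6.91% and 7.87% for control 1, control 2, IFNα 1 and IFNα 2, the same order as without them.

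Genes that work with the ribosome were counted beside its proteins, in lists drawn up by function. Of 7 elongation factors 0 were called in edgeR (0 at an unadjusted p under 0.05; median log2 fold change -0.22), and the one with the smallest p, the exchange factor Eef1b2, was at 1218 and 840 CPM in the controls and at 740 and 844 with IFNα. Of 35 initiation factors 0 were called (0 unadjusted; median -0.06), with the smallest p in the scaffold gene Eif4g3 at a log2 fold change of 0.27 (SE 0.15, adjusted p = 0.566). Without control 2, the log2 fold changes of Eef1b2, Eif4g3 and Tsr1 were -0.62, 0.43 and 0.53, each resting on 1 control. Of 67 genes for ribosome assembly and rRNA processing 0 were called (0 unadjusted; median 0.02), with the smallest p in Tsr1, a maturation factor of the small subunit, at 0.35 (SE 0.15, adjusted p = 0.479). Of 25 subunits and factors of RNA polymerases I and III 0 were called (2 higher unadjusted, Bdp1 and Polr1a; median -0.01). Bdp1, a part of the initiation factor of polymerase III, was at 57.4 and 108 CPM in the controls and at 148 and 144 with IFNα (log2 fold change 0.82, SE 0.29, adjusted p = 0.383). Its log2 fold change was 0.44 without control 1 and 1.35 without control 2, both values resting on 1 control each. With both controls it passed with the gene length offset and the replicate block together (0.69, edgeR adjusted p = 0.0252). It did not pass with that offset alone or that block alone (edgeR adjusted p = 0.127 and 0.0928). Nor did it pass in DESeq2 (adjusted p = 0.0526), limma-voom (0.339) or the likelihood ratio test (0.136). The mRNA length offset (edgeR adjusted p = 0.0539) and the other scalings and filters did not call it either. The crossed block, a pairing chosen after the data were seen, gave 0.89 (edgeR adjusted p = 6.36e-06).

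Among 12 other mRNAs known to carry a TOP, 1 was called, the intermediate filament gene Vim, which was lower with IFNα. It was at 120 and 102 CPM in the controls and at 53.4 and 57.5 with IFNα (log2 fold change -1.001, SE 0.14, edgeR adjusted p = 0.0346), so the groups were well apart. Without IFNα replicate 1 or 2 it no longer passed (adjusted p = 0.212 and 0.101). The median of that list was -0.20, and over all 14417 genes tested 32 were called lower. Of 31 regulators of mTORC1 and TOP mRNAs 0 were called (1 higher and 1 lower unadjusted; median 0.11). The smallest p was that of Sesn1, a sestrin that restrains mTORC1, at 118 and 117 CPM in the controls and at 79.4 and 81.4 with IFNα (-0.54, SE 0.12, adjusted p = 0.129). The controls differed little for this gene, and both IFNα samples lay below either control. With both controls it passed in the likelihood ratio test (adjusted p = 0.0196) and with the gene length offset (0.0354), at log2 fold changes of -0.54 and -0.50. It also passed with the mRNA length offset (0.0197, at -0.50) and the crossed block (0.0184, at -0.54). Both of these fits were added after the data were seen. Sesn1 did not pass in DESeq2, limma-voom, the other scalings, the other filters or the replicate block. With that block and the gene length offset together it did not pass either.

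Of 13 tested genes through which interferon acts on translation, 5 were called higher and 0 lower, with a median log2 fold change of 0.55. Over all 14417 genes tested, 206 were called higher. That list was drawn up from genes of the interferon response, with earlier results of these data known. Eif2ak2, the kinase PKR that phosphorylates the initiation factor eIF2 on sensing double-stranded RNA, rose from 26.9 and 41.0 CPM in the controls to 260 and 261 with IFNα (2.94, SE 0.22, adjusted p = 0.00337). It was named after its values were seen. Of 17 genes of ribosome quality control and ribosomal stress, 2 were called higher and 0 lower (median 0.07). They were Cdkn1a, a cell cycle inhibitor induced by p53, from 6.23 and 7.05 to 18.04 and 20.4 CPM (1.53, SE 0.17, adjusted p = 0.0133), and Ascc3, a helicase that takes apart collided ribosomes, from 52.5 and 79.1 to 184 and 168 CPM (1.42, SE 0.22, adjusted p = 0.0445). In Eif2ak2, Cdkn1a and Ascc3 the groups did not overlap. Ascc3 missed the threshold when libraries were scaled by their totals (adjusted p = 0.0694) or with a filter at a mean CPM of 5 (0.0670).

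The genes for mitochondrial ribosomal proteins, which form a separate ribosome, were the set most like the members in function. Of 77 tested, 0 were called in edgeR (2 lower unadjusted, median log2 fold change -0.20). The smallest p was that of Mrpl45 at -0.56 (SE 0.20, adjusted p = 0.379). Its log2 fold change was -0.26 without control 1 and -0.80 without control 2. With the crossed block, chosen after the data were seen, Mrpl45 was called at -0.54. The mitochondrial set took 0.447%, 0.340%, 0.323% and 0.345% of counts in control 1, control 2, IFNα 1 and IFNα 2. That was the same order of samples as in the cytosolic set. For the mitochondrial set the median log2 ratio between the controls was -0.44, at a median mRNA length of 1280 bases. The 2 sets differed in that ratio, -0.64 against -0.44, and also in length. In the band of 1201 to 1400 bases the median of the 6 cytosolic members was -0.57. The 2 sets were not compared at equal length, so the part of length in the difference was not tested. Genes of the mitochondrial genome did not have this order and took 1.78%, 1.93%, 1.55% and 1.58% of counts.

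The treatment labels were checked with Isg15, a ubiquitin-like protein induced by interferon, and Irf7, a transcription factor of the interferon response. Isg15 was at 6.00 and 4.10 CPM in the controls and at 322 and 374 with IFNα (log2 fold change 6.11, adjusted p = 0.000287), and Irf7 at 33.3 and 26.1 and at 678 and 671 (4.51, adjusted p = 0.000325). Both genes thus separated the samples as labelled. The 6 CD8+ T cell markers summed to 3256 and 2603 CPM in the controls and to 2724 and 2845 with IFNα. The 5 B cell markers summed to 20.1 and 18.5 CPM in the controls and 13.3 and 13.0 with IFNα, with Ms4a1 at 0 or 1 counts per sample. The 5 myeloid markers summed to 25.3 and 23.0 and to 11.5 and 14.6 CPM, and of them Lyz2 was called lower (log2 fold change -1.46, adjusted p = 0.0297). The CD4+, NK, erythroid and platelet lists each summed to at most 9.96 CPM in any sample. The CD8+ list had control 1 highest, as the members did, but control 2 lowest, and the part of any of these cells in the members' levels was not tested.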

How the data were processed

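RNA-seq counts per gene of 4 samples (2 control, 2 IFNα) were analysed. Per the labels and the methods, the authors mapped reads of NEBNext Ultra libraries with Hisat2, counted them with featureCounts (Subread) and deposited raw counts in a table of 54532 genes, where 0 counts differed from the single-sample files. For the counter, neither version nor strand setting is given. The submitters' notes name mm9, but the table's coordinates equal those of GENCODE M21 (GRCm38) for 53585 genes. The table's gene length is another deposited column, in bases.

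Genes were kept by filterByExpr (minimum count 10, total 15), which left 14417, scaled by TMM and tested in edgeR 4.0.16 (R 4.3.3) with glmQLFit (robust) and glmQLFTest, with condition as the only term and 2 residual degrees of freedom. Calls were made at a Benjamini-Hochberg adjusted p under 0.05. No fold threshold was used for the members. CPM is the count scaled to a TMM-adjusted library of 1000000. DESeq2 1.42.0 and limma-voom (limma 3.58.1) were alternatives. Alternatives also covered scaling, filters, gene length, a replicate block and leaving out samples. The test was tried on simulated data first.

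Named genes were the markers Rpl3, Rps6 and Rplp0 with the other P proteins, the 8 members with the smallest p in each direction, the highest and lowest 3 members by TPM and by the ratio of the controls, the paralogs with their namesakes, Rpl5, Rpl11, Rps27a, Fau and Rps3a1, and the leading gene of each list. Others were named after their values were seen. Some genes of the rule are not reported here. In the interferon list 13 of 15 symbols were in the table. The members, the lists and the tests were chosen with earlier results of these data known.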

Additional observations from a re-analysis of the deposited data

How the results depend on the processing

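The count of ribosomal protein genes called with IFNα was 0 in both directions under every scaling, filter, test, length offset and replicate block run, apart from the crossed block (1 lower) and the fits that left out a control (0 to 76 lower over the 4 fits that left out each sample in turn). The samples shared a replicate number only: the correlation of same-numbered samples' deviations was -0.14 over all genes, and with the replicate block the members' median log2 fold change was -0.31, 0 members were called and the calls over all genes were 57 lower and 274 higher. With the pairs crossed, a choice made after seeing the data, 340 genes were called lower and 743 higher. The median of the members lay between -0.629 and 0.0166 when each sample was left out in turn and between -0.41 and -0.16 under the other alternatives. The median log2 ratio between the controls went from -0.64 to -0.33 with the offset for mRNA length, also added after seeing the data, and the cause was not tested.

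Over all genes, 32 lower and 206 higher became 138 and 356 with no filter, 87 and 346 in DESeq2, 236 and 429 in the likelihood ratio test, 103 and 358 with the gene length offset, 114 and 386 with that offset and the block, and 169 and 411 with the mRNA length offset. With the study's fold threshold 20 were called lower. Leaving out each sample in turn gave 23 to 3177 lower and 219 to 3403 higher.

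The log2 fold changes of 16 named genes took the other sign when a sample was left out, with these lowest and highest values: Fau -0.75 and 0.0323, Rpl7 -0.53 and 0.0190, Rpl7a -0.88 and 0.14, Rpl11 -0.65 and 0.0331, Rpl13a -0.53 and 0.0220, Rpl22 -0.62 and 0.11, Rpl36 -0.66 and 0.0557, Rpl36a -0.72 and 0.00067, Rpl36al -0.22 and 1.16, Rpl39 -0.69 and 0.14, Rpl39l -0.53 and 0.0330, Rplp2 -0.68 and 0.10, Rps21 -0.90 and 0.0110, Rps27 -0.49 and 0.21, Rps27l -0.66 and 0.0252, and Rps29 -1.20 and 0.19. For 14 of them this was without control 1, for Rpl36al without control 2 and for Rpl39l without IFNα replicate 2. With 2 samples a group and 1 control that stood apart, a common shift of the members could go undetected here. The size of shift that could be detected was not computed. Rps12 at -0.70 and Rps29 at -0.67, the lowest members, did not pass (edgeR adjusted p = 0.449 and 0.598).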

Other observations

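Several non-coding rows named as ribosomal protein pseudogenes held more counts than some of the genes. Rpl14-ps1 was at 398 and 270 CPM in control 1 and 2 and at 221 and 278 in IFNα 1 and 2, and Rpl21-ps15 at 226 and 164 and at 149 and 169, beside 244.5 and 214 and 209 and 174 for Rpl21 itself. In both pseudogene rows control 2 lay between the IFNα samples, while in Rpl21 both IFNα samples lay below both controls. Of the members, 59 had at least 1 such row, 288 rows in all, and 39 shared at least 1 exonic base with another gene. Rpl35, 68.3% of whose transcript lies under exons of Arpc5l and Wdr38, and Rpl23a, 55.4% under Tlcd1 and a small nucleolar RNA gene, had neighbours with counts of their own, 6375 and 1003 over the 4 samples. How reads were shared between these rows was not tested.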
